A study of Mus musculus with 18 samples.

Results

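Transcripts that mark T cells, natural killer (NK) and cytotoxic cells, myeloid cells, dendritic cells and erythroid cells were measured in RNA of mouse spleen B cells, where they report on cells other than B cells in the preparation. The set holds 35 genes of the 35275 in the deposited table, chosen by name as markers of those cells: 8 of T cells, 12 of NK and cytotoxic cells, 8 of myeloid cells, 4 of dendritic cells and 3 of erythroid cells. All 35 were found by symbol in GENCODE mouse release M21 (GRCm38). Their levels are given in FPKM, the fragments of a gene scaled by the length of its transcript and by the mapped fragments of the library, so levels can be compared between genes.

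The cells were pan B cells from spleens of C57BL/6 mice, labelled with no other genotype, sex or age. Every group was first held for 1 h with 1000 ng/ml of a protein, either mBaffR-mFc, which the study describes as covering the site on BAFF that its receptor BR3 binds, or a control antibody. BAFF is a cytokine that keeps B cells alive, and it was given as a form of 3 subunits (3mer) or of 60 subunits (60mer) at 100 ng/ml, or left out, for the next 4 h. The groups after mBaffR-mFc are called BRFc_60mer, BRFc_3mer and BRFc, and those after control antibody Ab_60mer, Ab_3mer and Ab, where BRFc and Ab received no BAFF. Each of the 6 groups had 3 libraries, numbered in the order of deposition, and nothing in the labels says whether these came from separate animals or cultures. The p-values below therefore measure only the spread between these libraries.

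Spleen contains B cells beside T cells, NK cells, macrophages, monocytes, neutrophils, dendritic cells and red cell precursors, and B cells are taken from it by antibodies that bind either the B cells or all the others. T cells carry the CD3 complex with the T cell receptor, NK cells carry lectin-like receptors of the Klr family and kill with perforin and granzymes, and myeloid cells are known by lysozyme, by receptors for growth factors and bacterial products and by the S100 proteins of neutrophils. Some of these genes are also transcribed at times in B cells, among them Lck in B-1 cells, so a transcript alone does not name the cell that made it. In RNA of a whole preparation, fewer cells of a type and less RNA per cell cannot be told apart.

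The label of the cells was borne out by B cell genes. Ms4a1, Cd79a, Cd79b, Cd22, Pax5, Cr2 and Fcer2a summed to between 2288 and 2545 FPKM in the 18 libraries, led by Cd79a with a mean of 851 FPKM. Library totals, recovered from the steps between FPKM values, ran from 12229111 to 25416051 fragments. A split between libraries touches several results. Transcripts of connective tissue (Col1a1, Col1a2, Col3a1, Sparc, Dcn and Bgn) summed to between 8.14 and 12.9 FPKM in 8 libraries, which are all 3 of BRFc_60mer, all 3 of Ab_60mer and replicates 1 and 2 of Ab_3mer. In the other 10 libraries they summed to at most 0.131 FPKM. BRFc_60mer against BRFc, BRFc_60mer against BRFc_3mer and Ab_60mer against Ab lie wholly across this split, so that BAFF 60mer and whatever made the split cannot be told apart in them.

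Of the 35 markers, 24 reached a mean of 1 FPKM over the 18 libraries and could be tested, and 10 reached a mean of 10 FPKM. Among all genes, 33.0% reached 1 FPKM and 21.2% reached 10 FPKM. The classes differed in level. All 12 NK and cytotoxic genes and all 8 myeloid genes passed the minimum, against 3 of 8 T cell genes, 1 of 4 dendritic cell genes and none of the 3 globin genes. Summed over their members, the myeloid genes gave 155 to 192 FPKM per library, which equals 6.51% to 8.14% of the summed B cell genes. The NK and cytotoxic genes gave 150 to 186 FPKM (6.30% to 7.83%) and the T cell genes 43.2 to 54.6 FPKM (1.73% to 2.275%). The dendritic cell genes summed to 1.83 to 2.67 FPKM and the globins to 0.925 to 2.29 FPKM. These percentages compare transcript levels and are not shares of cells. The B cell sum itself averaged 2364 FPKM in BRFc_60mer and 2351 FPKM in Ab_60mer, and 2436 to 2454 FPKM in the other groups.

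**Figure D1:**
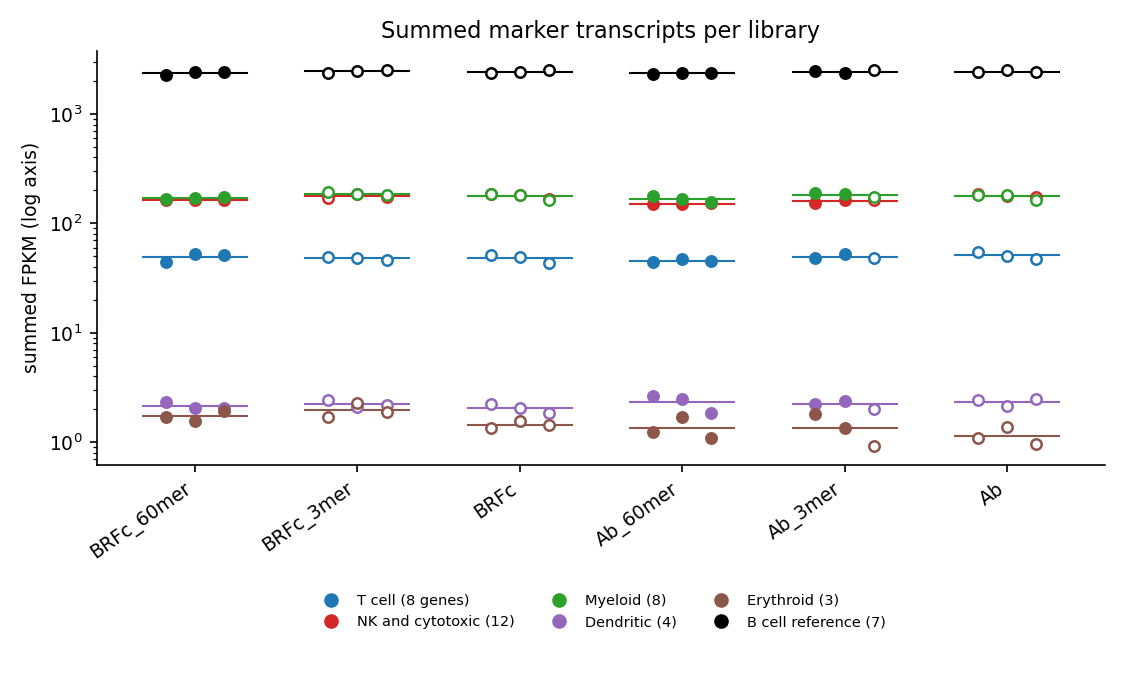
Summed FPKM (log axis) of the 5 marker classes and of the 7 B cell genes in each library of the 6 groups, with a line at the group mean; filled points are the 8 libraries with connective tissue transcripts and open points the other 10. The B cell genes lie at 2288 FPKM or more in all libraries, the myeloid and NK sums between 150 and 192 FPKM, the T cell sum near 48.4 FPKM, and the dendritic and erythroid sums below 2.68 FPKM.

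Among T cell genes, the kinase gene Lck stood far above the genes of the T cell receptor complex. Lck, which encodes the kinase that starts signalling from the T cell receptor, averaged 44.8 FPKM and made up 92.1% of the summed T cell genes. It had 40.5, 48.0 and 48.7 FPKM in BRFc_60mer, 45.3, 44.6 and 43.4 FPKM in BRFc_3mer and 47.4, 45.7 and 39.4 FPKM in BRFc. After control antibody it had 40.6, 43.5 and 41.6 FPKM in Ab_60mer, 45.1, 48.2 and 43.9 FPKM in Ab_3mer and 49.8, 46.9 and 43.9 FPKM in Ab. The Ab_60mer libraries all lay below the Ab libraries, and the 3 groups after mBaffR-mFc overlapped. Cd3g, Cd3d and Cd3e, the chains of CD3, averaged 1.03, 0.575 and 0.507 FPKM, and their sum never passed 3.03 FPKM in a library. They rested on 197, 253 and 247 fragments over all 18 libraries.

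The coreceptor genes were close to the limit of detection. Cd8a and Cd8b1, the chains of CD8, averaged 0.0783 and 0.150 FPKM with 77 and 67 fragments in all. Cd4, the coreceptor of helper T cells, averaged 0.0481 FPKM from 21 fragments and was at 0 in 8 of 18 libraries. No Cd4 fragment fell in the 3 Ab libraries, which allows a mean of up to 0.0410 FPKM there at 3 fragments over the group, a limit that covers counting error only. Il7r, the receptor of the lymphocyte growth factor interleukin 7, averaged 1.44 FPKM and peaked at 1.83 FPKM.

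Lck has 2 start sites in RefSeq, and FPKM per gene cannot tell which was in use. The 250 bases before each start are shown because Lck carries nearly all of the T cell sum. Both are from RefSeq (build GRCm38.p6, minus strand), 5′ to 3′, and capitals mark the core letters bound by T-box factors (GTGTGA, reverse TCACAC) or by RUNX factors (TGTGGT, reverse ACCACA), searched on both strands.
Lck upstream start, chr4:129573642-129573891: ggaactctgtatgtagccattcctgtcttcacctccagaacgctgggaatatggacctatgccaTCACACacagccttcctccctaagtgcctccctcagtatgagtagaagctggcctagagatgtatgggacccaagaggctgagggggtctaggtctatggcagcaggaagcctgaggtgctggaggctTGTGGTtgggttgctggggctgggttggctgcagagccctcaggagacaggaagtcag
Lck downstream start, chr4:129558373-129558622: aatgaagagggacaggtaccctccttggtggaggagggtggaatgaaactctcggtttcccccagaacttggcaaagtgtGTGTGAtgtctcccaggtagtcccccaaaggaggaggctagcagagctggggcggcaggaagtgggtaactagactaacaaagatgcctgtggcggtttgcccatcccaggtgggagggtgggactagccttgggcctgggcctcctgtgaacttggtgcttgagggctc
The window of the upstream start held 1 match of each motif, and that of the downstream start 1 T-box match. Of the downstream window, 19 bases lie in an exon of another annotated Lck transcript. Of 32851 promoter windows of this length in RefSeq, 12.29% held the T-box letters and 14.05% the RUNX letters, and of the 32 windows of the 28 markers with an entry 9 held the T-box and 15 the RUNX letters. The motif cores do not overlap each other in these windows, and a match of letters is a description and not a binding site.

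NK and cytotoxic genes were present throughout, each with a mean above 1 FPKM. Gzma, the secreted protease granzyme A, led the class with a mean of 52.3 FPKM (45.6 to 60.6 FPKM over libraries) and 31.1% of the class sum. It had 53.3, 54.8 and 53.0 FPKM in BRFc_60mer, 54.3, 60.6 and 52.7 FPKM in BRFc_3mer and 58.0, 55.7 and 45.6 FPKM in BRFc. The control antibody groups had 49.4, 48.3 and 45.6 FPKM in Ab_60mer, 47.6, 49.5 and 48.3 FPKM in Ab_3mer and 57.7, 54.4 and 52.5 FPKM in Ab. Both BAFF groups after control antibody lay below all 3 Ab libraries. Il2rb, the receptor chain through which NK cells respond to interleukins 2 and 15, averaged 30.8 FPKM.

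The receptor genes followed. Klrd1 (CD94), Klrk1 (NKG2D) and Klre1, lectin-like receptors that switch NK cells on or off, averaged 23.3, 13.96 and 11.8 FPKM, and Klrb1c, which encodes the NK1.1 antigen of this strain, 7.08 FPKM. These 4 genes lie on chromosome 6 between positions 128778485 and 129623864 (GRCm38). Nkg7 of cytotoxic granules averaged 7.499 FPKM, the pore protein gene Prf1 5.55 FPKM, the granzyme gene Gzmb 3.66 FPKM and the NK receptor gene Ncr1 3.56 FPKM. Eomes and Tbx21, the T-box transcription factors of NK and cytotoxic T cells, averaged 6.87 and 1.89 FPKM. Thus no NK gene was near 0 in any library, the lowest being Tbx21 with 1.251 FPKM in Ab_60mer replicate 2, while the CD3 genes together stayed at or below 3.03 FPKM in the same libraries. This holds for CD3 and not for every T cell receptor gene. Outside the set, the β chain segments Trbc1 and Trbc2 averaged 11.9 and 4.44 FPKM in Ab and 8.52 and 3.84 FPKM in Ab_60mer.

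Myeloid genes were led by Lyz2, lysozyme M of macrophages, monocytes and neutrophils, at a mean of 110 FPKM, which put it above 97.2% of all genes. It had 100, 109 and 110 FPKM in BRFc_60mer, 120, 120 and 111 FPKM in BRFc_3mer and 120, 111 and 103 FPKM in BRFc. After control antibody it had 110, 108 and 95.6 FPKM in Ab_60mer, 116, 117 and 107 FPKM in Ab_3mer and 112, 113 and 99.7 FPKM in Ab. Between groups of the same pretreatment its libraries overlapped, except that every BRFc_60mer library lay below every BRFc_3mer library. The receptor of macrophage colony-stimulating factor, Csf1r, averaged 11.7 FPKM and the macrophage antigen Adgre1 (F4/80) 13.7 FPKM, with a spread over libraries of only 5.02% and 5.88% (coefficient of variation). The calcium-binding proteins of neutrophils, S100a8 and S100a9, averaged 11.8 and 9.71 FPKM and varied more, by 20.05% and 19.83%.

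Cd14, which binds bacterial lipopolysaccharide on monocytes and macrophages, averaged 7.94 FPKM, the integrin chain Itgam (CD11b) 6.59 FPKM and the monocyte antigen Ly6c2 5.07 FPKM. Of the exon bases of Itgam, 68.7% are shared with the annotated gene Gm49368 on the same strand, and 15.1% of those of Csf1r with Hmgxb3 on the opposite strand, which itself averaged 12.1 FPKM. The NK gene Klrb1c shares 13.95% of its exon bases with Gm44511 on the same strand. Neither Gm49368 nor Gm44511 has a value in the deposited table. The sources used here do not state how reads were counted or whether strand was used. How reads were assigned where these genes overlap is therefore uncertain.

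Dendritic cell and erythroid markers were the scarcest. Flt3, the receptor of a growth factor for dendritic cell precursors, had 1.70, 1.38 and 1.14 FPKM in BRFc_60mer, 1.75, 1.47 and 1.82 FPKM in BRFc_3mer and 1.71, 1.43 and 1.36 FPKM in BRFc. Control antibody libraries held 1.93, 1.69 and 1.21 FPKM in Ab_60mer, 1.79, 1.80 and 1.61 FPKM in Ab_3mer and 1.69, 1.66 and 1.74 FPKM in Ab. All of its groups overlapped, and it was the one dendritic cell marker above the minimum. Siglech, a surface lectin of plasmacytoid dendritic cells, averaged 0.448 FPKM. Batf3 and Xcr1, a transcription factor and a chemokine receptor of cross-presenting dendritic cells, averaged 0.106 and 0.0565 FPKM and were at 0 in 4 and 1 of the 18 libraries.

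The globin genes, which fill red cell precursors and reticulocytes with messenger RNA, reached at most 1.35 FPKM in any library. Hba-a1, the highest of them, had 1.35, 1.27 and 1.17 FPKM in BRFc_60mer, 0.785, 1.11 and 0.844 FPKM in BRFc_3mer and 1.08, 1.21 and 0.857 FPKM in BRFc. After control antibody it had 0.822, 1.11 and 0.578 FPKM in Ab_60mer, 0.527, 1.06 and 0.618 FPKM in Ab_3mer and 0.644, 0.689 and 0.749 FPKM in Ab. The BRFc_60mer libraries lay above those of every group except BRFc, and each library held only 6 to 15 fragments of Hba-a1. Hba-a2 and Hbb-bt averaged 0.288 and 0.298 FPKM. The coding sequences of Hba-a1 and Hba-a2 differ at 1 of 429 bases, and those of Hbb-bt and its copy Hbb-bs at 1 of 444, so that reads could be split between copies and the values of single globin genes are uncertain.

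**Figure D2:**
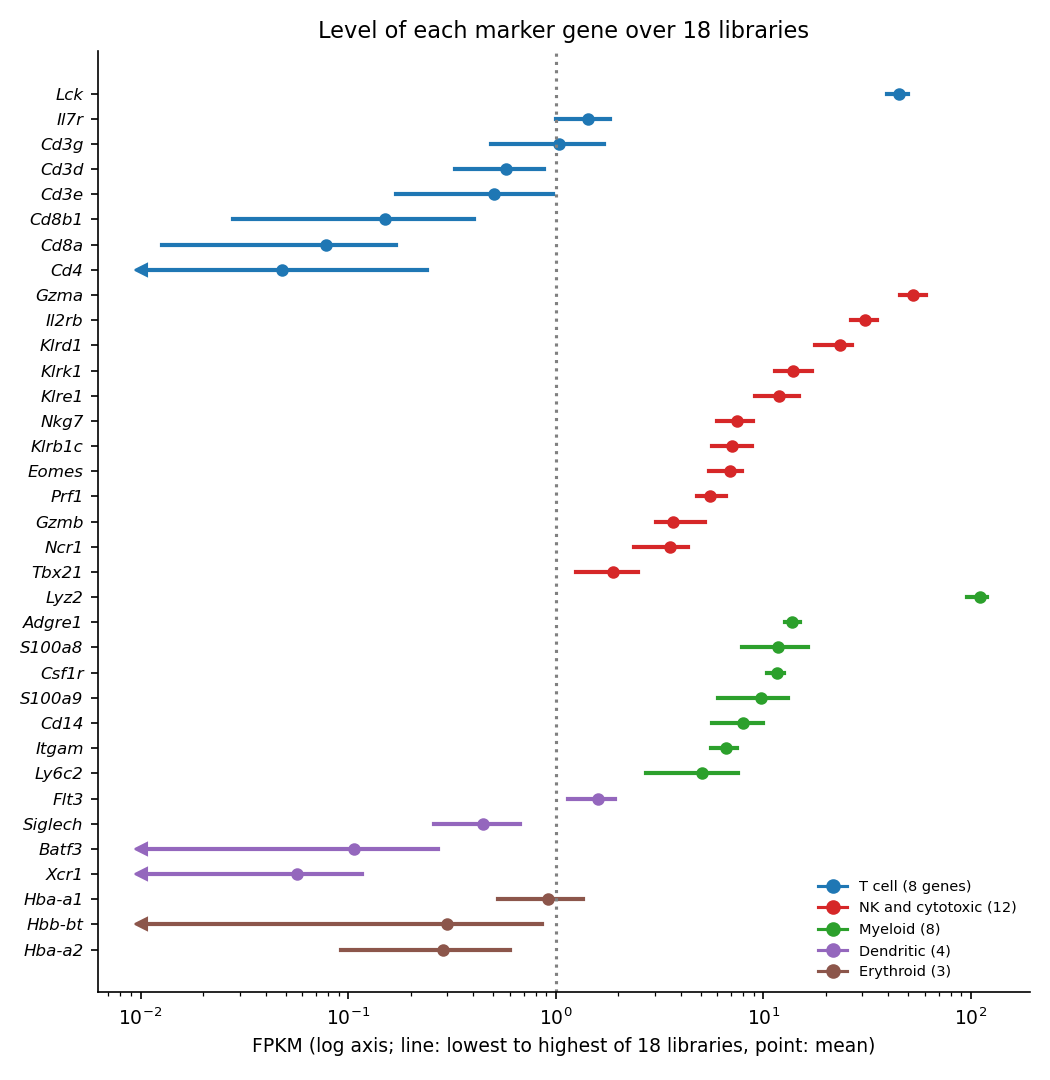
Mean FPKM (point) and range over the 18 libraries (line) of each of the 35 markers on a log axis, ordered by class and level; arrowheads mark a lowest library at 0, and the dotted line is the minimum mean of 1 FPKM for testing. Lck stands at 44.8 FPKM while the 3 CD3 genes stand between 0.507 and 1.03 FPKM, and all NK and myeloid genes lie right of the line.

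The spread between libraries depended on the level of the markers. The sum over all 35 genes ran from 356 FPKM in Ab_60mer replicate 3 to 426 FPKM in BRFc replicate 1, with a coefficient of variation of 5.22%, against 3.002% for the B cell genes. That sum is mostly Lyz2, Gzma and Lck, and the scarcer markers varied more, with a coefficient of variation of 19.9% for the summed CD3 genes and 24.5% for the globins. For each gene the variance of its fragments over the 18 libraries was set against that of counting alone, for which the ratio would be near 1. The median ratio was 2.39 over the 35 markers, 2.86 over the NK genes and 3.48 over the myeloid genes, beside 3.23 over all tested genes. The 35 markers include 11 under the minimum of 1 FPKM, which the tested genes exclude, so 2.39 and 3.23 cover unlike sets. Il2rb (10.6), Lyz2 (10.4) and Klre1 (7.03) had the highest ratios of the markers. Cd3g (0.951), Hba-a1 (0.800) and Hba-a2 (0.757) varied no more than counting alone gives.

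Differences between groups were tested with limma on log2(FPKM + 1) over the 11646 genes that averaged 1 FPKM or more, with Benjamini-Hochberg adjusted p-values over all of them and a threshold of 0.05. Over the 6 groups together, 4 of the 24 tested markers passed the moderated F test, where 8.93% of all tested genes did. These were Il2rb (adjusted p = 0.00429), Klrd1 (0.00490), Cd14 (0.00516) and Klre1 (0.0389), 3 NK receptor genes and the receptor for lipopolysaccharide. No T cell or dendritic cell gene passed, and the 3 tested T cell genes had adjusted p-values between 0.628 and 0.954. Of the B cell genes, Fcer2a (moderated F test, adjusted p = 1.03e-06), Cr2 (0.00047) and Cd22 (0.00259) also passed. The B cell sum is therefore not free of differences between groups. The 4 markers that passed are given in full.

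Klrd1 had 17.8, 19.97 and 22.4 FPKM in BRFc_60mer, 24.6, 25.8 and 26.2 FPKM in BRFc_3mer and 26.2, 26.6 and 23.8 FPKM in BRFc. After control antibody it had 19.4, 21.4 and 22.0 FPKM in Ab_60mer, 21.5, 22.5 and 22.2 FPKM in Ab_3mer and 24.9, 26.8 and 25.2 FPKM in Ab. Both 60mer groups lay wholly below their group without BAFF, and BRFc_60mer also below BRFc_3mer, while Ab_60mer and Ab_3mer overlapped. The gene lies at positions 129591782 to 129598775 of chromosome 6 on the plus strand.

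Il2rb had 31.0, 28.9 and 27.3 FPKM in BRFc_60mer, 30.8, 30.7 and 30.3 FPKM in BRFc_3mer and 32.5, 34.98 and 34.8 FPKM in BRFc. The groups with control antibody had 26.4, 27.8 and 27.9 FPKM in Ab_60mer, 29.1, 29.7 and 30.2 FPKM in Ab_3mer and 35.4, 31.3 and 35.2 FPKM in Ab. All 4 groups with BAFF lay below their group without BAFF, with no library in common range. The gene lies at positions 78479256 to 78495271 of chromosome 15 on the minus strand.

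Klre1, at positions 129577905 to 129585827 of chromosome 6 on the plus strand, had 11.3, 10.1 and 10.02 FPKM in BRFc_60mer, 12.5, 13.5 and 13.7 FPKM in BRFc_3mer and 13.3, 13.6 and 9.81 FPKM in BRFc. Under control antibody there were 9.66, 9.15 and 9.71 FPKM in Ab_60mer, 11.6, 13.1 and 11.04 FPKM in Ab_3mer and 14.6, 14.9 and 11.4 FPKM in Ab. The 3 Ab_60mer libraries were the lowest of all 18, and replicate 3 of BRFc lay far below the other two of its group.

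Cd14, at positions 36725067 to 36726798 of chromosome 18 on the minus strand, had 6.96, 6.06 and 5.63 FPKM in BRFc_60mer, 8.38, 8.77 and 7.94 FPKM in BRFc_3mer and 7.95, 8.03 and 7.01 FPKM in BRFc. After control antibody it had 7.33, 7.37 and 6.73 FPKM in Ab_60mer, 9.93, 8.89 and 9.06 FPKM in Ab_3mer and 9.12, 9.89 and 7.80 FPKM in Ab. Both 60mer groups lay below the groups with 3mer and without BAFF under the same pretreatment.

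**Figure D3:**
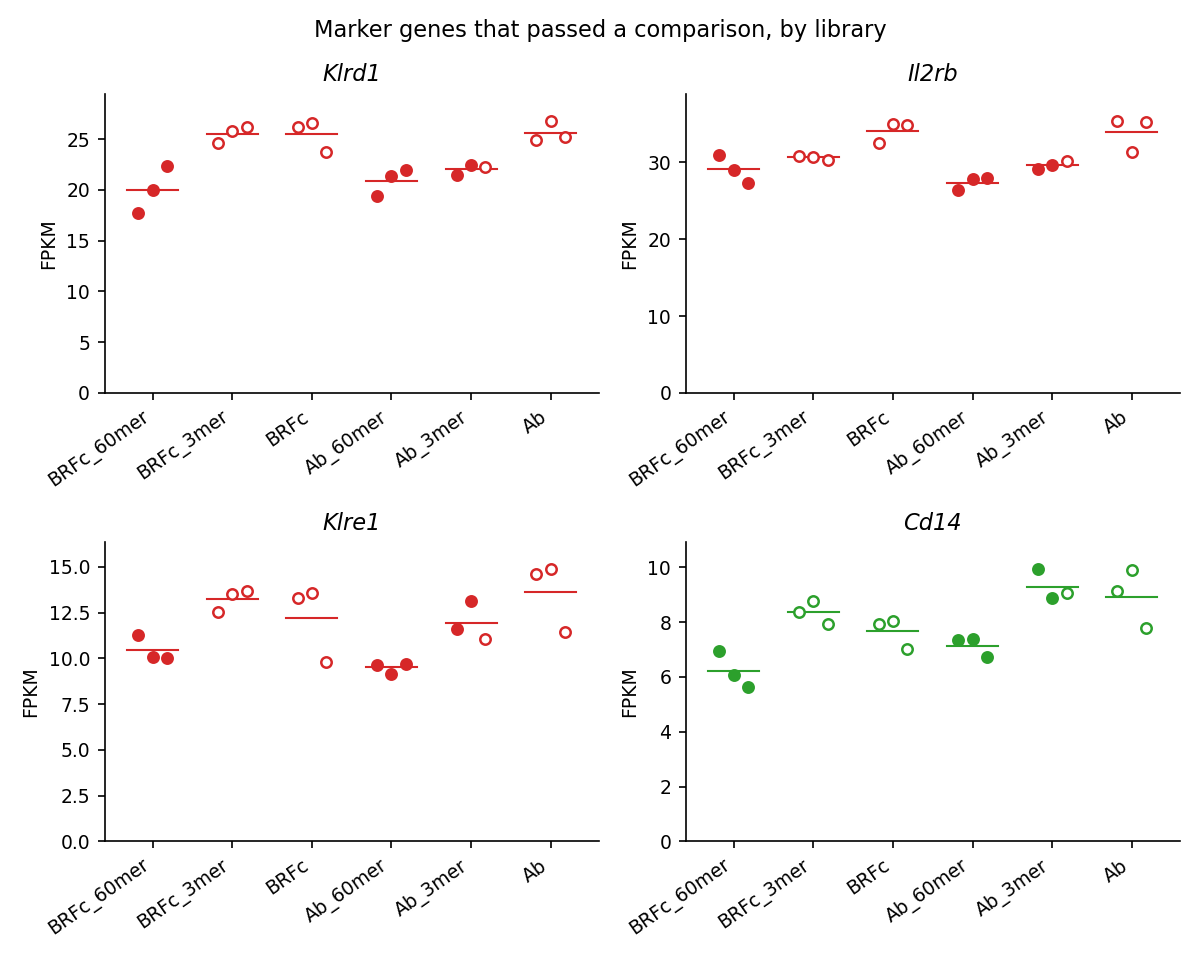
FPKM of Klrd1, Il2rb, Klre1 and Cd14 in each library of the 6 groups (axes start at 0), with a line at the group mean; filled points are the 8 libraries with connective tissue transcripts. Klrd1 averages 20.04 FPKM in BRFc_60mer and 20.9 FPKM in Ab_60mer, below the 25.5 FPKM of BRFc and the 25.6 FPKM of Ab.

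With BAFF 60mer under control antibody, 3 of the 12 NK genes and 1 of the 8 myeloid genes were lower than without BAFF. Klre1 averaged 9.51 ± 0.311 FPKM in Ab_60mer and 13.6 ± 1.93 FPKM in Ab (SD, n = 3 each), a log2 difference of -0.47 ± 0.108 (SE; limma, adjusted p = 0.00968). Il2rb averaged 27.3 ± 0.833 FPKM in Ab_60mer and 34.0 ± 2.33 FPKM in Ab (-0.30 ± 0.054, adjusted p = 0.00205). Klrd1 differed by -0.28 ± 0.070 (adjusted p = 0.0137), and Cd14 averaged 7.14 ± 0.361 FPKM in Ab_60mer and 8.94 ± 1.05 FPKM in Ab (-0.28 ± 0.086, adjusted p = 0.0380). With that, 4 of the 24 tested markers passed, all lower, a share close to that of all tested genes, of which 14% passed, 8.94% lower and 5.04% higher. Negative differences were found in 21 of the 24, with a median of -0.14, beside -0.02 over all tested genes, and in 11 of the 12 NK genes, with a median of -0.18. The exceptions were Gzmb (0.15), Cd3g (0.06) and Adgre1 (0.04). Klrd1 missed the threshold without Ab_60mer replicate 1 (adjusted p = 0.0734) or Ab replicate 2 (0.0581). Cd14 missed it without any one of the 3 Ab_60mer libraries, Ab replicate 1 or Ab replicate 2 (adjusted p = 0.0674 to 0.156).

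The other markers did not pass. Gzma differed by -0.20 ± 0.072 (adjusted p = 0.0774), Ly6c2 by -0.42 ± 0.149 (0.0674), Eomes by -0.21 ± 0.089 (0.123) and Lck by -0.16 ± 0.073 (0.163). Lyz2, the most abundant marker, differed by -0.05 with a 95% interval of -0.19 to 0.09. The 11 markers under the minimum had no adjusted p under 0.05 here in a fit of all 19873 genes above 0 FPKM in at least 3 libraries. Cd8a came nearest at 0.142, with a difference of 0.12.

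Under mBaffR-mFc, 2 of the same 12 NK genes were lower with BAFF 60mer, and no marker of another class passed. Klrd1 averaged 20.04 ± 2.31 FPKM in BRFc_60mer and 25.5 ± 1.54 FPKM in BRFc (SD, n = 3 each), a log2 difference of -0.34 ± 0.070 (SE; limma, adjusted p = 0.00928). Il2rb averaged 29.1 ± 1.84 FPKM in BRFc_60mer and 34.1 ± 1.38 FPKM in BRFc (-0.22 ± 0.054, adjusted p = 0.0221). These 2 of 24 stand beside 4.83% of all tested genes, 3.37% lower and 1.46% higher. Klre1 differed by -0.20 ± 0.108 (adjusted p = 0.348) and Cd14 by -0.27 ± 0.086 (0.0923). Differences were negative in 16 of the 24 markers, with a median of -0.06 beside -0.02 over all tested genes. Of the 12 NK genes 8 were negative, with a median of -0.11, and Nkg7 (0.16), Prf1 (0.03), Klrb1c (0.03) and Gzma (0.02) were positive without passing. Without BRFc replicate 2, neither passed (adjusted p = 0.0506 for Klrd1 and 0.0961 for Il2rb). Il2rb also missed the threshold without BRFc replicate 3 (0.0950), BRFc_60mer replicate 2 (0.0711) or BRFc_60mer replicate 3 (0.0799).

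The size of the change did not differ detectably between pretreatments. The interaction of BAFF 60mer with pretreatment, which is the 60mer difference under mBaffR-mFc minus that under control antibody, passed for 0 of 24 markers (limma, and 0 with voom on recovered fragments), where 0.00859% of all tested genes passed. Of the 24, 1 marker, Gzma, had an unadjusted p under 0.05. The interaction was 0.27 for Klre1 (95% interval -0.05 to 0.60), 0.08 for Il2rb (-0.08 to 0.24) and -0.05 for Klrd1 (-0.26 to 0.15).

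**Figure D4:**
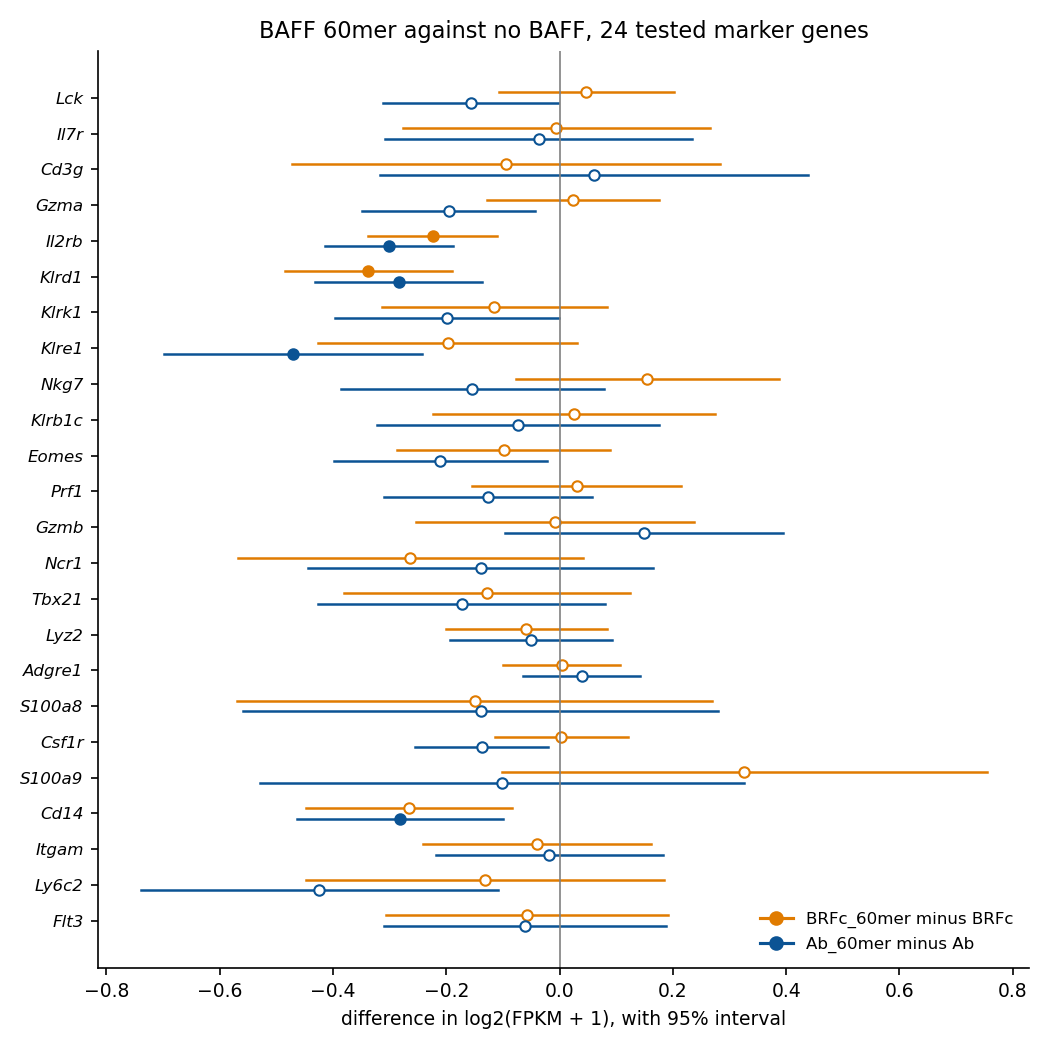
Log2 difference in log2(FPKM + 1) with its 95% interval for the 24 tested markers, BRFc_60mer minus BRFc above Ab_60mer minus Ab for each gene; filled points passed at an adjusted p under 0.05. Il2rb and Klrd1 are filled in both comparisons, and Klre1 and Cd14 in Ab_60mer minus Ab, while Lyz2 and Adgre1 lie near 0 in both.

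Cd14 was lower with the 60mer than with the 3mer under both pretreatments. Cd14 averaged 6.22 ± 0.680 FPKM in BRFc_60mer and 8.36 ± 0.414 FPKM in BRFc_3mer (SD, n = 3 each), a log2 difference of -0.38 ± 0.086 (limma, adjusted p = 0.0161). Under control antibody it averaged 7.14 ± 0.361 FPKM in Ab_60mer and 9.30 ± 0.558 FPKM in Ab_3mer (-0.34 ± 0.086, adjusted p = 0.0324). Klrd1 was lower in BRFc_60mer than in BRFc_3mer (-0.34 ± 0.070, adjusted p = 0.00855), and did not pass under control antibody (-0.08 ± 0.070, adjusted p = 0.588). So 2 of 24 markers passed under mBaffR-mFc, beside 5.16% of all tested genes (3.11% lower and 2.05% higher). Under control antibody 1 of 24 passed, beside 4.81% (3.01% lower and 1.80% higher), a share like that of all tested genes. Cd14 missed the threshold in Ab_60mer against Ab_3mer without any 1 of the 6 libraries (adjusted p = 0.0510 to 0.126). In BRFc_60mer against BRFc_3mer it missed it without BRFc_60mer replicate 2 (0.0609), BRFc_60mer replicate 3 (0.0654) or BRFc_3mer replicate 2 (0.0779). These comparisons share their 60mer libraries with those against no BAFF. Klre1 had differences of -0.32 and -0.30 that did not pass (adjusted p = 0.112 under mBaffR-mFc and 0.131 under control antibody).

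No marker passed between the 3mer and no BAFF. In Ab_3mer against Ab, 0 of 24 passed (limma, and 0 with voom), as did 0% of all tested genes, and 3 had an unadjusted p under 0.05. These were Klrd1 (-0.21 ± 0.070), Il2rb (-0.19 ± 0.054) and Gzma (-0.17 ± 0.072), all with an adjusted p of 0.881. In BRFc_3mer against BRFc, again 0 of 24 and 0% of all genes passed (limma, and 0 with voom), and Il2rb (-0.15 ± 0.054) and Adgre1 (-0.13 ± 0.049) had an unadjusted p under 0.05. The 95% intervals of the 24 differences had a median half-width of 0.21 on the log2 scale in each comparison of a pair of groups. These intervals are not adjusted for the number of genes tested, whereas passing was judged on adjusted p-values. Smaller changes of a typical marker were therefore not detectable, and changes larger than 0.21 could also have been missed. The interaction of the 3mer with pretreatment passed for 0 of 24 markers and 0% of genes (limma, and 0 with voom), with Klrd1, Gzma and Adgre1 at an unadjusted p under 0.05.

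Nor did a marker pass between the pretreatments. In BRFc against Ab, 0 of 24 passed beside 0% of all tested genes (limma, and 0 with voom). Adgre1 had 14.6, 14.7 and 14.5 FPKM in BRFc and 12.9, 12.8 and 12.7 FPKM in Ab, a difference of 0.18 ± 0.049 with groups that did not overlap and an adjusted p of 0.829. Gzmb and Cd14 also had an unadjusted p under 0.05. In BRFc_3mer against Ab_3mer, 0 of 24 and 0% passed (limma, and 0 with voom), and Klrd1 (0.20 ± 0.070) and Gzma (0.20 ± 0.072) had an unadjusted p under 0.05. In BRFc_60mer against Ab_60mer, 0 of 24 passed (limma, and 0 with voom) beside 0.0258% of all genes. Gzma (0.17 ± 0.072), Csf1r and Adgre1 (0.14 ± 0.049) had an unadjusted p under 0.05 there.

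The NK sum was mostly lower in the libraries with connective tissue transcripts, with ranges that overlap at their edges. It averaged 164 ± 0.592 FPKM in BRFc_60mer, 177 ± 8.46 in BRFc_3mer and 178 ± 10.4 in BRFc, and 151 ± 1.35 in Ab_60mer, 160 ± 4.73 in Ab_3mer and 179 ± 5.84 in Ab (SD, n = 3 each). The 8 libraries with connective tissue transcripts had 150 to 165 FPKM (median 159), and the other 10 had 163 to 186 FPKM (median 177). The third Ab_3mer library, which lacks these transcripts, had 163 FPKM and lay beside the 155 and 163 FPKM of the carrying libraries of its group. The summed T cell genes of the set overlapped throughout, with medians of 48.1 FPKM in carrying and 48.6 FPKM in the other libraries, and the myeloid genes had medians of 173 FPKM in carrying and 182 FPKM in the other libraries. The sum of the 20 further T cell genes described last, of which Cd2 with a mean of 71.7 FPKM is the largest, was 98.0 to 121 FPKM in carrying libraries and 123 to 135 FPKM in the others, with no overlap. Within Ab_3mer, which holds both kinds of library, this sum ran only from 121 to 123 FPKM. Cd2 averaged 75.3 FPKM in Ab_3mer, near the 76.0 FPKM of Ab and above the 58.8 FPKM of Ab_60mer. Whether the sum follows the split or BAFF 60mer was not tested.

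BRFc_60mer against Ab_60mer, in which 0 of 24 markers passed (limma), lies wholly within the carrying libraries. Between forms of BAFF, the only comparison left within them is 3 libraries of Ab_60mer against replicates 1 and 2 of Ab_3mer. There Cd14 differed by -0.35 (limma, adjusted p = 0.0856), Klre1 by -0.35 (0.180), Il2rb by -0.10 (0.489) and Klrd1 by -0.07 (0.744). When the fit also held a term for carrying or lacking these transcripts, 0 markers passed in any comparison. In Ab_60mer against Ab the differences were then -0.62 for Klre1 (adjusted p = 0.340), -0.26 for Il2rb (0.440), -0.27 for Klrd1 (0.579) and -0.33 for Cd14 (0.593). In BRFc_60mer against BRFc they were -0.32 for Klrd1 (0.823) and -0.19 for Il2rb (0.954). Against BRFc_3mer they were -0.33 for Klrd1 (0.610) and -0.43 for Cd14 (0.562). Only Ab_3mer holds both kinds of library, so the term rests on those 3 libraries.

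The 3 C1q genes were higher in the libraries with connective tissue transcripts. C1qa, C1qb and C1qc, which encode the chains of complement C1q made by tissue macrophages, were chosen after their values were seen, so their values are a description. Their sum was 3.9, 2.55 and 3.42 FPKM in BRFc_60mer, 0.688, 0.869 and 1.15 FPKM in BRFc_3mer and 0.549, 0.579 and 1.05 FPKM in BRFc. It was 3.29, 2.83 and 3.00 FPKM in Ab_60mer, 3.34, 3.85 and 1.24 FPKM in Ab_3mer and 0.771, 0.637 and 1.73 FPKM in Ab. Every carrying library, at 2.55 FPKM or more, lay above every other library, at 1.73 FPKM or less. The 16 further macrophage and monocyte genes, which include these 3, had a summed median of 117 FPKM in carrying and 119 FPKM in the other libraries. The ranges of that sum overlapped. In Ab, Mpeg1 with 52.1 FPKM and Hmox1 with 30.3 FPKM made up most of its mean of 121 FPKM. The sum therefore cannot show whether scarcer genes of the list followed the C1q genes. The part of the C1q transcripts in the lower NK values was not tested.

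**Figure D5:**
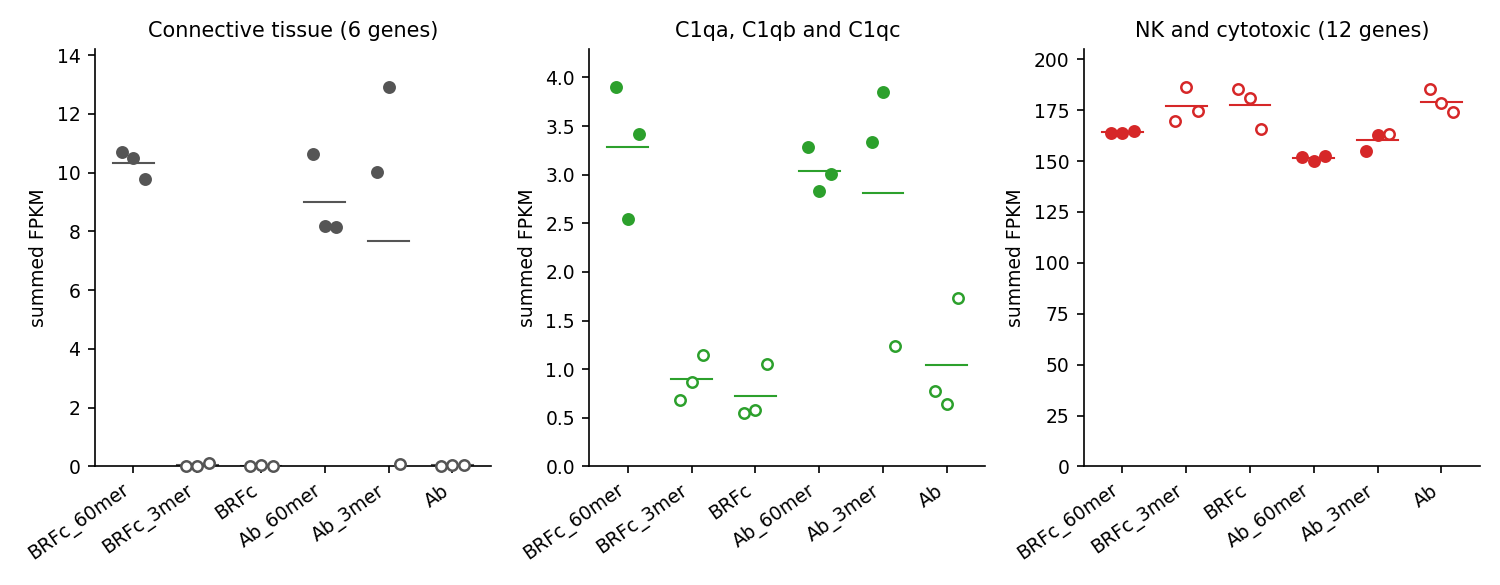
Summed FPKM of 6 connective tissue genes, of C1qa, C1qb and C1qc, and of the 12 NK and cytotoxic markers in each library (axes start at 0), with a line at the group mean; filled points carry connective tissue transcripts. Carrying libraries have 2.55 to 3.9 FPKM of C1q genes against 0.549 to 1.73 FPKM in the others, and 150 to 165 FPKM of NK genes against 163 to 186 FPKM.

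Longer lists of markers of the same cells were read beside the set. Of 14 further NK and innate lymphoid genes, 12 were tested, led by the chemokine gene Ccl5 with a mean of 58.2 FPKM. Of these 12, 1 was lower in Ab_60mer than in Ab, the Ly49 receptor gene Klra4 (8.15 ± 0.656 FPKM in Ab_60mer and 10.9 ± 0.0804 FPKM in Ab, -0.38 ± 0.086, limma, adjusted p = 0.00855). In BRFc_60mer against BRFc 1 was lower, Klra8, another Ly49 receptor gene (10.7 ± 0.490 FPKM in BRFc_60mer and 14.9 ± 0.481 FPKM in BRFc, -0.44 ± 0.117, adjusted p = 0.0362). Klra8 did not pass in Ab_60mer against Ab (0.02) nor Klra4 in BRFc_60mer against BRFc (-0.12). Of all tested genes, 8.94% were lower in Ab_60mer against Ab and 3.37% in BRFc_60mer against BRFc, so 1 of 12 is no result about the list. The median difference of the 12 was -0.24 in Ab_60mer against Ab and -0.15 in BRFc_60mer against BRFc.

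Among 20 further T cell genes 13 were tested. The adhesion receptor gene Cd2, which mouse B cells also express, averaged 59.1 ± 3.37 FPKM in BRFc_60mer and 80.1 ± 5.11 FPKM in BRFc (-0.43 ± 0.054, limma, adjusted p = 0.000183), and 58.8 ± 2.06 FPKM in Ab_60mer and 76.0 ± 2.68 FPKM in Ab (-0.36 ± 0.054, adjusted p = 0.000452). Trbc1, a constant segment of the T cell receptor β chain, was lower in Ab_60mer (8.52 ± 1.75 FPKM) than in Ab (11.9 ± 2.28 FPKM; -0.44 ± 0.140, adjusted p = 0.0469), with overlapping libraries. These were the 2 of 13 that passed under control antibody, and Cd2 was the 1 of 13 under mBaffR-mFc, beside 14% of all tested genes under control antibody and 4.83% under mBaffR-mFc. Of the further macrophage, granulocyte, and erythroid and platelet genes, 0 of 8, 0 of 7 and 0 of 4 passed in either comparison (limma). At an unadjusted p under 0.05 there were 2, 0 and 1 of them in BRFc_60mer against BRFc and 1, 0 and 1 in Ab_60mer against Ab. Among listed genes under the minimum, the regulatory T cell gene Foxp3 (0.46 ± 0.089, adjusted p = 0.00770) and the mast cell and basophil gene Fcer1a (-0.31 ± 0.066, adjusted p = 0.0127) passed in Ab_60mer against Ab in the fit without a minimum, and were named after their values were seen. The 14% above is not the share of that fit, and this comparison lies wholly across the connective tissue split. Foxp3 and Fcer1a are therefore no result about the lists.

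Zbtb46, a transcription factor known from conventional dendritic cells, went the other way. It averaged 15.8 ± 2.001 FPKM in BRFc_60mer and 9.55 ± 1.00 FPKM in BRFc (0.67 ± 0.093, limma, adjusted p = 0.000470), and 15.9 ± 1.098 FPKM in Ab_60mer and 9.99 ± 0.622 FPKM in Ab (0.62 ± 0.093, adjusted p = 0.000523). Among 6 tested of 13 further dendritic cell genes it was 1 of 2 that rose in Ab_60mer, beside Ly6d, which B cells also express, and the 1 that rose in BRFc_60mer. Of all tested genes, 5.04% rose in Ab_60mer against Ab and 1.46% in BRFc_60mer against BRFc. The libraries of Zbtb46 with 60mer did not overlap those without. Of the other tested genes of this list, Irf8 (0.03), Tcf4 (0.06), Itgax (-0.20) and Ccr9 (-0.34) did not pass in Ab_60mer against Ab. Zbtb46 was thus not followed by the list, and which cells made its transcripts was not tested. The dendritic cell markers of the set, Flt3, Siglech, Batf3 and Xcr1, passed in neither comparison, and their sum averaged 2.13 ± 0.159 FPKM in BRFc_60mer and 2.04 ± 0.195 FPKM in BRFc, and 2.32 ± 0.436 FPKM in Ab_60mer and 2.34 ± 0.178 FPKM in Ab.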

How the data were processed

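RNA of 18 spleen B cell libraries, 6 groups of 3, was sequenced by a company, which per the labels also determined expression as FPKM for the authors; the deposited table of FPKM per Ensembl gene was used as it stands. The aligner, counting tool and build are not given in the sources used here. Of 35275 gene IDs, 34490 matched GENCODE M21, the source of symbols and positions. Library totals were recovered because 1 fragment adds a fixed step to a gene's FPKM, and 88.9% of values below 500 fragments in genes with 1 transcript came out whole within 0.1. Fragments were whole for all 35 markers with a single length (tolerance 0.02). Groups were compared with limma 3.58.1 in R 4.3.3 on log2(FPKM + 1), with the variance prior following the mean level, all 6 groups in 1 fit and a minimum mean of 1 FPKM. A log2 difference on this scale understates the change of low genes. The 9 comparisons of 2 groups, 2 interactions and the F test were adjusted over 11646 genes (Benjamini-Hochberg, 0.05). Alternatives were a pseudocount of 0.1, no minimum, a minimum of 5 FPKM, median-of-ratios rescaling, only the groups compared, a connective tissue or library total term, voom on the recovered fragments and leaving out each library. Intervals are 95% intervals of the model. The markers, gene lists, tests and alternatives were chosen with earlier results of these data known. Values per library are given for markers that passed a comparison and for the highest of each class. Figures were drawn with matplotlib 3.10.9. 1 further B cell gene of the planned list is not reported here and was left out of the B cell sum.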

Additional observations from a re-analysis of the deposited data

How the results depend on the processing

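No paired analysis was possible because the labels give no replicate numbers. Over 14 alternatives for each of the 9 differences that passed, 83 of 126 values passed, 43 did not and 0 changed sign. Il2rb and Klre1 in Ab_60mer against Ab missed the threshold under 1 of 14, the connective tissue term. Klrd1 there passed under 10 of 14 (0.0734 without Ab_60mer replicate 1, 0.0581 without Ab replicate 2, 0.0963 with the library total) and Cd14 under 4 of 14 (up to 0.156 without a library). Klrd1 passed under 10 of 14 in BRFc_60mer against BRFc and 12 of 14 against BRFc_3mer, Il2rb under 8 of 14 in BRFc_60mer against BRFc, and Cd14 under 9 of 14 against BRFc_3mer and 4 of 14 in Ab_60mer against Ab_3mer. Without Ab_60mer replicate 3, Eomes (-0.32, adjusted p = 0.0215) and Ly6c2 (-0.53, 0.0395) also passed in Ab_60mer against Ab.

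Markers passing in Ab_60mer against Ab were 4 as reported, 0 with the connective tissue term, 2 with the library total and 2 to 5 without a library (2 without Ab_60mer replicate 1 or Ab replicate 2). In Ab_60mer against Ab_3mer they were 1, and 0 with no minimum, only the groups compared, either term or any of the 6 libraries left out. In BRFc_60mer against BRFc they were 2, then 0 with only the groups compared or the connective tissue term, 1 with the library total and 0 to 2 without a library (0 without BRFc replicate 2). In BRFc_60mer against BRFc_3mer they were 2, then 0 with only the groups compared or the connective tissue term and 1 to 2 without a library. The F test gave 4, 0 with the connective tissue term and 3 to 5 without a library. The cause was not tested.

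Of all genes, 1628 passed in Ab_60mer against Ab, 1053 with only the groups compared, 16 with the connective tissue term, 624 with the library total and 756 (without Ab_60mer replicate 1) to 1668 without a library. In Ab_60mer against Ab_3mer these were 560, 252, 246, 165 and 246 (without Ab_3mer replicate 3) to 471, and in BRFc_60mer against BRFc 563, 139, 10, 272 and 242 (without BRFc replicate 3) to 731. In BRFc_60mer against BRFc_3mer 601 passed, 287 with only the groups compared, 15 with the connective tissue term and 233 (without BRFc_3mer replicate 3) to 543 without a library. The F test gave 1040, 50 with the connective tissue term, 502 with the library total and 671 to 1160 without a library. BRFc_60mer against Ab_60mer gave 3, 0 with only the groups compared and 1 to 6 without a library. In Ab_3mer against Ab and for the 3mer interaction 0 became 1 with no minimum or the connective tissue term and 0 to 1 without a library; in BRFc_3mer against Ab_3mer 0 became 1, 1, 0 to 1 and 2 with only the groups compared. In BRFc_3mer against BRFc 0 became 2 with only the groups compared and 0 to 1 without a library, and in BRFc against Ab 0 to 1. The 60mer interaction gave 1, 2 with the connective tissue term and 0 with no minimum, rescaling, only the groups compared, the library total or any library left out.

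Depth limits the T cell, dendritic cell and globin markers with a mean under 1 FPKM, which rest on 21 to 253 fragments over 18 libraries.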
